A study of Mus musculus with 6 samples.

Results

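The transcripts of 9 G protein-coupled receptors through which T cells sense lipids were examined in naive CD4 T cells of mice carrying a missense change, N159S, in *Ikzf3*, the gene for the zinc finger transcription factor Aiolos. The genes were taken by symbol from the 25239 genes listed for each library: *S1pr1*, *S1pr4* and *S1pr5* (sphingosine 1-phosphate), *Gpr183* (oxysterols), *Cnr2* (endocannabinoids), *Ptger4* and *Ptger2* (prostaglandin E2), and *Lpar6* and *P2ry10* (lysophospholipids). RNA-seq was done on splenic TCRb+CD4+CD44-CD127+ T cells, purified by FACS from C57BL/6 mice, in 6 libraries, 2 for each of the 3 genotypes *Ikzf3* +/+, *Ikzf3* +/N159S and *Ikzf3* N159S/N159S. The allele was introduced into the germ line by CRISPR-Cas9, so every cell of the mutant mice carries it, and no treatment other than the purification is named. The methods count the mice of each mutant genotype, and that number equals the number of its libraries here, but the labels tie no library to a mouse and for the wild type the methods leave more than one number possible. All p-values measure the spread between the libraries as deposited, and the ages of the mice are not stated in the sources used here. Apart from the edited allele, the 3 genotypes share the strain, tissue and gate.

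Lipid-sensing receptors couple a gradient of a small lipid outside the cell to G proteins inside it. *S1pr1* is known as the receptor that carries T cells out of lymphoid organs towards the high sphingosine 1-phosphate of blood and lymph, and *Gpr183* as the one that places lymphocytes and dendritic cells along oxysterol gradients within the spleen and lymph nodes. Prostaglandin E2 receptors of the EP2 and EP4 type raise cyclic AMP and dampen T cell activation, *Cnr2* is a Gi-coupled receptor that is most abundant in B cells and other leukocytes outside the brain, and *P2ry10* and *Lpar6* respond to lysophosphatidylserine and lysophosphatidic acid, respectively.

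The libraries held 11696461 to 17317260 reads on genes, and 14803 to 18147 genes had at least 1 read. Markers of T cells (*Cd3d*, *Cd3e*, *Cd3g*, *Cd4*, *Lck* and *Cd28*) summed to 2795 to 3261 CPM (reads on the gene scaled to a common library size) in every library, and 0 of 6 passed the test in any comparison. Markers of naive T cells summed to 3650 to 4652 CPM, with 2 of 5 called lower in each mutant genotype than in the wild type. The sums were 14.8 to 41.5 CPM for myeloid, 41.2 to 70.9 CPM for natural killer and CD8 cytotoxic and 5.41 to 9.97 CPM for erythroid and platelet markers. The natural killer and CD8 cytotoxic sum differed by genotype. It was 67.25 to 70.91 CPM in the wild type, 55.77 to 60.26 CPM in the heterozygote and 41.24 to 44.98 CPM in the homozygote. Of its 6 tested markers 1 was called higher (*Gzma*) and 1 lower (*Cd8b1*) in the homozygote against the wild type. Between the mutants 2 of 7 tested myeloid markers were called higher in the homozygote. Markers of B cells were present as well and differed by genotype, with summed levels of 146.5 and 214.7 CPM in *Ikzf3* +/+, 354.0 and 581.2 CPM in *Ikzf3* +/N159S and 147.7 and 99.5 CPM in *Ikzf3* N159S/N159S. *Xist*, which is transcribed from the inactive X chromosome of female cells, measured 730.8 and 824.4 CPM in both heterozygous libraries, against 0.773 to 1.98 CPM in the other 4, so that in any comparison with the *Ikzf3* +/N159S group the allele, the sex-linked transcript and the B cell transcripts cannot be told apart. *Ikzf3* itself is edited and not deleted, so its count does not check the labels. Its levels were 157.1 and 154.5 CPM in *Ikzf3* +/+, 167.7 and 152.2 CPM in *Ikzf3* +/N159S and 197.1 and 202.6 CPM in *Ikzf3* N159S/N159S. It was called higher in the homozygote than in the wild type (log2 fold change 0.36, standard error 0.093, edgeR false discovery rate 0.0490). That call was lost under several other settings.

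Between genotypes 1 receptor transcript, that of *Cnr2*, differed by the test. Of the 9 genes, 8 had enough reads to be tested, and with edgeR's quasi-likelihood test and a Benjamini-Hochberg false discovery rate (FDR) under 0.05 over the 12117 tested genes, 0 of 8 passed between *Ikzf3* N159S/N159S and *Ikzf3* +/+, where 5.26% of all tested genes passed. Between *Ikzf3* +/N159S and *Ikzf3* +/+ again 0 of 8 passed, against 1.75% of all tested genes, and between *Ikzf3* N159S/N159S and *Ikzf3* +/N159S 1 of 8 passed, *Cnr2*, against 1.66% of all tested genes. At an unadjusted edgeR p under 0.05 the counts were 5, 1 and 2 of 8, beside 18.3%, 16.3% and 12% of all tested genes. DESeq2 likewise called 0, 0 and 1 of the 8 genes.

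The sizes of the differences can be bounded. In the homozygous mutant against the wild type the 95% interval of the log2 fold change lay within a doubling or halving for all 8 tested receptors, and within 1.5-fold for 6 of them. The median of the absolute log2 fold change was 0.24 over the 8 receptors and 0.17 over all tested genes. The signed values ran from -0.58 for *Cnr2* to 0.29 for *Lpar6*, with 6 above 0 and 2 below.

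**Figure D1:**
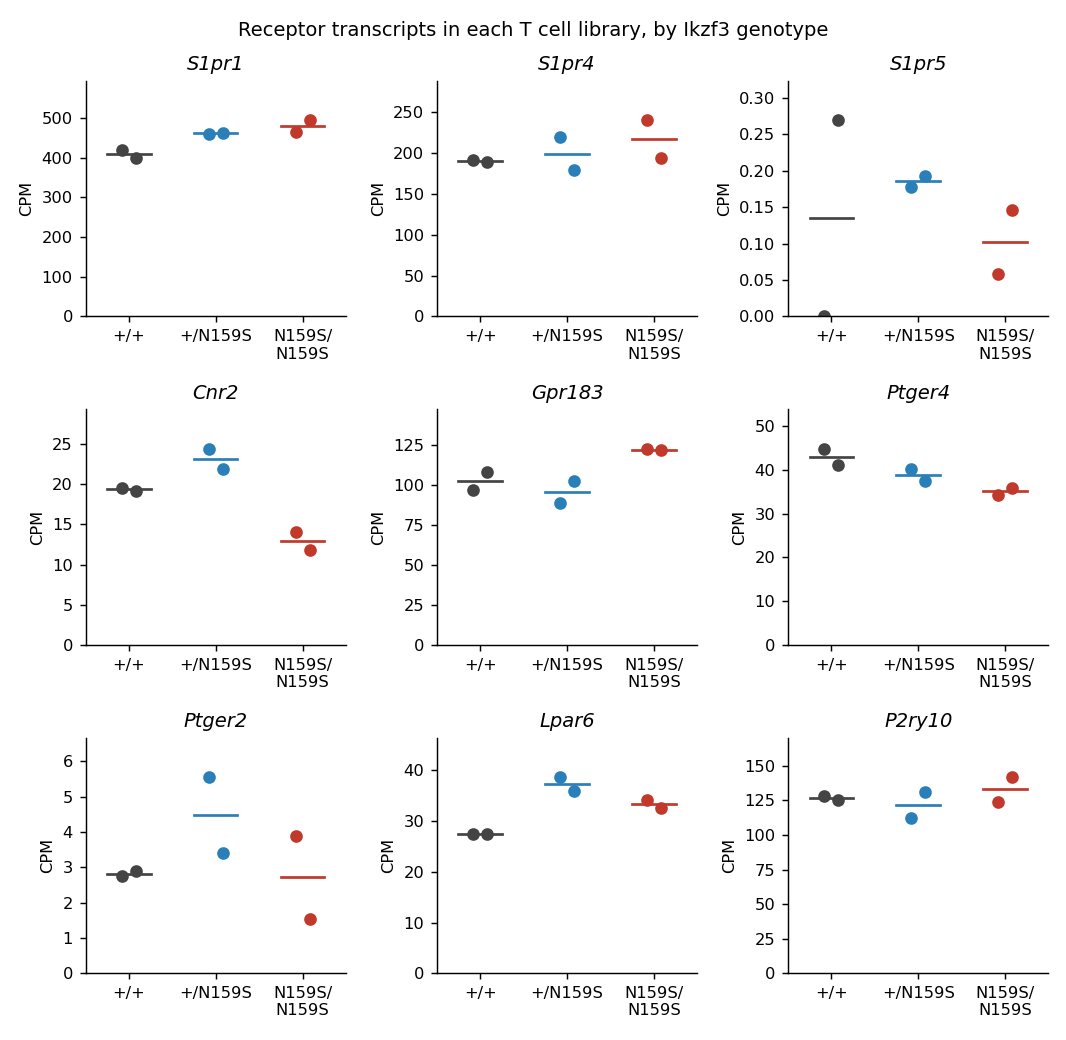
Normalised level of each of the 9 receptor genes in CPM (vertical axes from 0), with 1 point for each library and a bar at the mean of the 2 libraries of each *Ikzf3* genotype. *Cnr2* shows both *Ikzf3* N159S/N159S libraries (14.0 and 11.8 CPM) below the other 4, *S1pr1* and *Lpar6* show all 4 mutant libraries above both wild-type libraries, *Ptger4* shows all 4 below, and *S1pr5* stays at or under 0.269 CPM.

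The receptors differed far more from each other than between genotypes. Compared per length, as reads per kilobase of exon at a fixed depth (RPKM, the CPM value divided by the exonic length in kilobases), the mean levels in the wild type were 134.2 ± 5.18 (SD, n = 2) for *S1pr1*, 80.0 ± 0.732 for *S1pr4*, 42.4 ± 0.663 for *P2ry10* and 35.5 ± 2.83 for *Gpr183*. A second tier held *Ptger4* at 6.47 ± 0.389, *Lpar6* at 5.07 ± 0.00200 and *Cnr2* at 4.87 ± 0.0724 RPKM, and *Ptger2* followed at 0.543 ± 0.0197 and *S1pr5* at 0.0538 ± 0.0761 RPKM. Among 11908 tested genes with an annotated length the percentile of the wild-type level was 97.8 for *S1pr1*, 96 for *S1pr4*, 91.2 for *P2ry10*, 89 for *Gpr183*, 48.9 for *Ptger4*, 43.5 for *Lpar6*, 42.7 for *Cnr2* and 13.1 for *Ptger2*.

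Over all 6 libraries the RPKM ranges of *S1pr1* (130.6 to 162.2) and *S1pr4* (75.1 to 100.7) did not meet. Those of *P2ry10* (37.6 to 47.5) and *Gpr183* (30.8 to 42.4) overlapped, and so did those of *Ptger4* (5.16 to 6.74), *Lpar6* (5.07 to 7.16) and *Cnr2* (2.96 to 6.14), so the order within these tiers was not set beyond the spread of the libraries. The order of the tiers was the same in each genotype. Exonic lengths were those of all annotated exons of a gene merged, which for *Lpar6* gives 5400 bases, and a gene counted on fewer of them would stand higher.

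**Figure D2:**
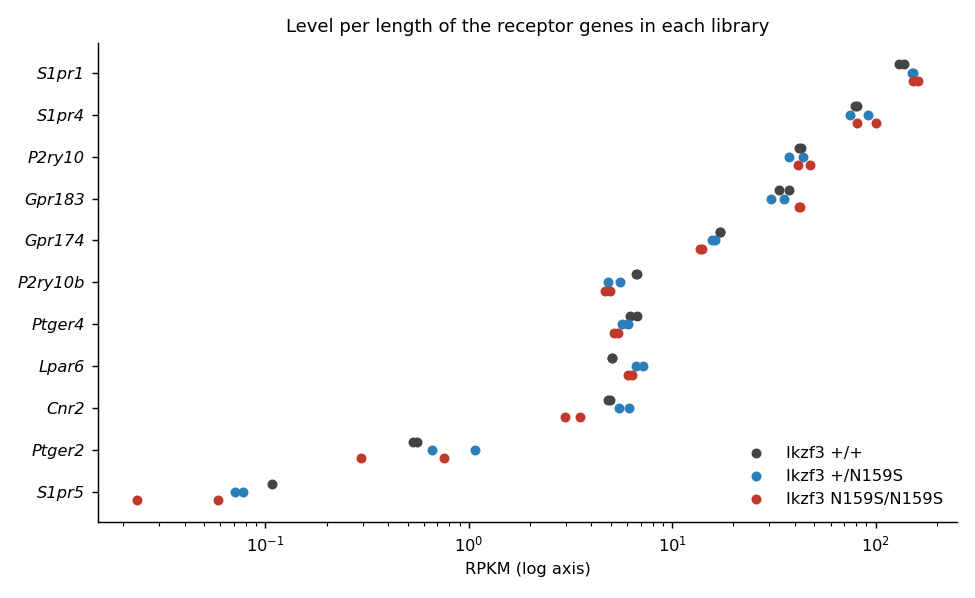
Level per length (RPKM, log axis) of the 9 receptor genes and of the *P2ry10* relatives *P2ry10b* and *Gpr174* in each of the 6 libraries, coloured by *Ikzf3* genotype. *S1pr1* stands highest at 130.6 to 162.2 and *S1pr5* lowest, its wild-type library with 0 reads being off the log axis.

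Of the sphingosine 1-phosphate receptors, *S1pr1* (chr3:115710433-115715072, mm10, minus strand) was the most abundant transcript of the set. It stood at 420.1 and 397.7 CPM in *Ikzf3* +/+, 458.6 and 462.9 CPM in *Ikzf3* +/N159S and 463.6 and 493.9 CPM in *Ikzf3* N159S/N159S. All 4 mutant libraries lay above both wild-type libraries, a pattern that 14.3% of all tested genes share in the upward direction. The log2 fold change was 0.23 ± 0.093 (SE) in the homozygote (edgeR FDR 0.219) and 0.17 ± 0.093 in the heterozygote (edgeR FDR 0.394), and neither passed. In the homozygote the 95% interval ran from 0.024 to 0.43, so a rise or fall of *S1pr1* beyond 1.5-fold lay outside it.

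*S1pr4* (chr10:81497747-81500132, minus strand), a receptor found mainly on leukocytes, measured 192.1 and 189.7 CPM in the wild type, 219.8 and 179.2 CPM in the heterozygote and 240.2 and 193.8 CPM in the homozygote. Its mutant libraries differed more from each other than the genotypes did. The homozygote against the wild type gave a log2 fold change of 0.19 ± 0.13 (edgeR FDR 0.489), and without the first homozygous library it was 0.022.

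*S1pr5* (chr9:21242912-21248443, minus strand), which natural killer cells use to leave the bone marrow, was at the limit of detection. It had 0 and 4 reads in the wild type, 3 and 3 in the heterozygote and 1 and 2 in the homozygote, and did not pass the filter on low counts. A count of 0 in the first wild-type library allows up to 3 reads, or 0.258 CPM, a limit that covers counting error only, and no fold change is given. Of the natural killer and CD8 cytotoxic markers, *Ncr1* was at 0 reads in 3 of the 6 libraries and at 1 to 8 in the rest. *Klrb1c* had 1 to 23 reads in a library, while *Klrd1* had 133 to 248 and *Prf1* 259 to 546. *S1pr1* made up 60.2% to 66.9% of the summed level per length of *S1pr1*, *S1pr4* and *S1pr5*, with the lowest and the highest of these shares both in mutant libraries.

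Of 14 other genes listed for the sphingosine 1-phosphate axis 10 were tested, and in the homozygote 2 rose, 1 fell and 7 did not pass. Thus 30% were called beside 5.26% of all tested genes. This list, like the others below, was chosen with earlier results of these data known, so such shares do not measure an enrichment. The median log2 fold change of the 10 was 0.084. *S1pr2*, a receptor coupled to G12 and G13 that restrains migration, had 6.36 and 6.46 CPM in the wild type, 8.97 and 7.54 CPM in the heterozygote and 11.3 and 11.4 CPM in the homozygote. Its groups did not overlap, and its level rose by a log2 fold change of 0.82 ± 0.19 in the homozygote (edgeR FDR 0.0291).

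*Klf2*, the transcription factor known to activate *S1pr1*, had 434.5 and 444.8 CPM in the wild type, 423.2 and 509.8 CPM in the heterozygote and 595.0 and 682.5 CPM in the homozygote. Both homozygous libraries were the highest, and the log2 fold change was 0.54 ± 0.11 (edgeR FDR 0.0195), against the 0.23 of *S1pr1*. *Sgpp1*, a phosphatase that breaks down sphingosine 1-phosphate inside the cell, fell by 0.47 ± 0.11 on the log2 scale (edgeR FDR 0.0346). The calls of *S1pr2* (edgeR FDR 0.111 to 0.176) and *Sgpp1* (0.0983 to 0.201) were lost when any 1 wild-type or homozygous library was left out. That of *Klf2* was lost without either wild-type library or the second homozygous library (edgeR FDR 0.107 to 0.135).

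*Cd69*, whose protein binds *S1pr1* and removes it from the cell surface, followed another pattern. It had 366.9 and 350.4 CPM in the wild type, 242.7 and 249.4 CPM in the heterozygote and 349.0 and 447.6 CPM in the homozygote. The heterozygous libraries were the lowest, and *Cd69* fell by 0.54 ± 0.12 on the log2 scale in them against the wild type (edgeR FDR 0.0442, and 0.101 to 0.182 without any 1 of the wild-type or heterozygous libraries) and was 0.69 ± 0.12 higher in the homozygote than in the heterozygote (edgeR FDR 0.0149, and 0.0522 and 0.101 without the first heterozygous or the second homozygous library). The *Xist* and B cell values given above move with this group.

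*Gpr183* (chr14:121952551-121965195, minus strand), also known as EBI2, had 96.7 and 108.2 CPM in the wild type, 88.8 and 102.1 CPM in the heterozygote and 122.4 and 121.4 CPM in the homozygote. The homozygous libraries were the highest and hardly differed from each other, while the other 4 overlapped. The log2 fold change was 0.25 ± 0.11 against the wild type (edgeR FDR 0.236) and 0.35 ± 0.10 against the heterozygote (edgeR FDR 0.148), so neither passed. The B cell marker sums were 147.7 and 99.5 CPM in these homozygous libraries and 146.5 and 214.7 CPM in the wild type. Their part in the *Gpr183* values was not tested.

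Of the 4 genes listed for oxysterol metabolism 2 were tested. *Ch25h*, the enzyme that makes the *Gpr183* ligand precursor, had 2 to 4 reads in a library, and *Cyp7b1* had 1 read in all. *Cyp27a1*, a sterol 27-hydroxylase, had 1 and 6 reads in the wild type, 28 and 25 in the heterozygote and 43 and 15 in the homozygote, and rose in the homozygote with a log2 fold change of 2.79 ± 0.72 (edgeR FDR 0.0455). The call was lost, with edgeR FDRs from 0.0521 to 0.364, when either wild-type library, the first heterozygous or the first homozygous library was left out, and the log2 fold change was 2.19 without the first wild-type, 4.32 without the second wild-type and 2.02 without the first homozygous library. *Hsd3b7* did not pass.

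*Cnr2* (chr4:135895394-135920207, plus strand), the CB2 cannabinoid receptor, was the receptor called. It had 19.6 and 19.2 CPM (228 and 285 reads) in the wild type, 24.4 and 21.9 CPM (414 and 340 reads) in the heterozygote and 14.0 and 11.8 CPM (241 and 161 reads) in the homozygote. The 3 genotypes did not overlap, with the heterozygous libraries highest and the homozygous ones lowest. *Cnr2* fell by 0.84 ± 0.15 on the log2 scale from the heterozygote to the homozygote (95% interval -1.16 to -0.51, edgeR FDR 0.0165), the 90th lowest p among all tested genes, and 1.03% of all tested genes were called lower in this comparison.

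Against the wild type the homozygous level was lower by a log2 fold change of -0.58 ± 0.15 (edgeR FDR 0.0539), and the heterozygous level stood 0.26 ± 0.14 above it (edgeR FDR 0.403). Neither passed the threshold, and the first lies close to it, with edgeR FDRs of 0.0450 to 0.286 when 1 library was left out. The heterozygous level exceeded the midpoint of the homozygotes by 0.55 ± 0.12 (edgeR FDR 0.0695, where 1.03% of all tested genes were called). The paper, also with edgeR at an FDR under 0.05, counted *Cnr2* among the genes downregulated in homozygous T cells, a call not made here. It named *Cnr2* as an exception to an intermediate level in the heterozygote. The call between the 2 mutant genotypes was lost without the first heterozygous library (-0.75, edgeR FDR 0.0718) and without the second homozygous library (-0.71, edgeR FDR 0.142).

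B cell transcripts moved in the same direction as *Cnr2* between genotypes. Of the 9 B cell markers, among them *Cd79a*, *Cd79b*, *Ms4a1* and *Pax5*, 9 were called lower in the homozygote than in the heterozygote, 4 were called higher in the heterozygote and 4 lower in the homozygote against the wild type. The 9 became 5 without the second heterozygous and 4 without the second homozygous library. The 4 in the heterozygote became 1 without the first wild-type, 7 without the first heterozygous and 2 without the second heterozygous library, and the 4 in the homozygote became 0 without the second wild-type and 1 without the second homozygous library. Within genotypes the measures ranked the libraries alike in the homozygote and not in the other genotypes. The homozygous library with the higher marker sum (147.7 CPM) had the higher *Cnr2* (14.0 CPM), while the other had 99.5 and 11.8 CPM. The heterozygous library with the higher marker sum (581.2 CPM) had the lower *Cnr2* (21.9 CPM), and so had the wild-type library with the higher sum (214.7 CPM, *Cnr2* 19.2 CPM). At nearly the same marker sum, 146.5 CPM in a wild-type and 147.7 CPM in a homozygous library, *Cnr2* was 19.6 and 14.0 CPM. In such bulk libraries fewer cells of a type and less RNA per cell cannot be told apart.

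**Figure D3:**
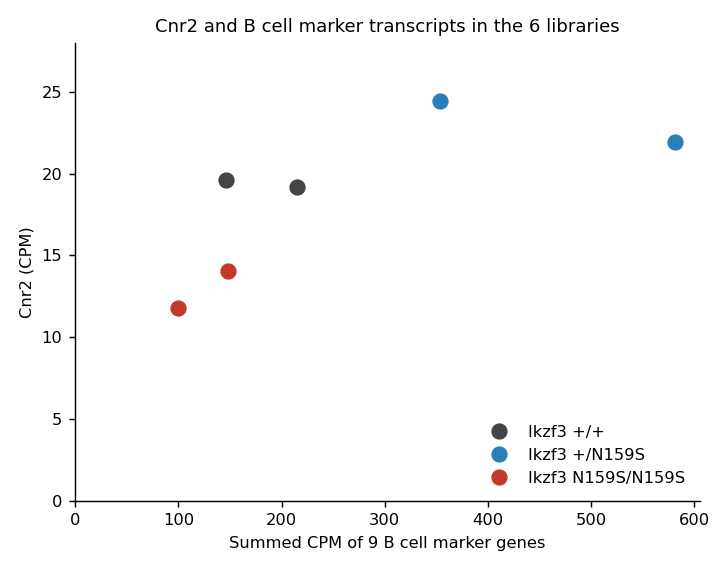
*Cnr2* level (CPM, vertical axis) against the summed level of 9 B cell marker genes (CPM, horizontal axis) in the 6 libraries, coloured by *Ikzf3* genotype. The wild-type library at 146.5 CPM and the homozygous library at 147.7 CPM of B cell markers differ in *Cnr2*, at 19.6 and 14.0 CPM.

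Markers of other T cell states differed by genotype as well. Of the 6 listed for effector and memory T cells 5 were tested and 4 were called lower in the homozygote than in the heterozygote, with sums of 58.3 to 60.6 CPM in the wild type, 67.6 to 83.5 CPM in the heterozygote and 27.8 to 37.7 CPM in the homozygote. Of the 5 regulatory T cell markers 2 were called lower in that comparison, with sums of 86.1 to 90.6, 125.5 to 149.3 and 86.5 to 94.3 CPM. Between the homozygote and the wild type 0 of these 5 regulatory markers were called and their sums overlapped. There 1 of the 5 tested effector and memory markers, *Il2rb*, was called lower (log2 fold change -1.53 ± 0.17, edgeR FDR 0.000436). In the heterozygote against the wild type 1 marker of each set was called higher, *Cxcr3* (edgeR FDR 0.0169) and *Ikzf2* (edgeR FDR 0.0230). The part of either marker set in the *Cnr2* difference was not tested. Over the 6 libraries the 2 genes whose log2 level was most like that of *Cnr2*, among 10412 genes, were *Il12rb1* (Pearson r 0.991), a chain of the receptors for interleukin 12 and interleukin 23, and *Usp40* (r 0.990), a deubiquitinase. In all 26 genes had an r above 0.95, and the 6 points share the genotypes and the depth of the libraries.

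The RefSeq promoter windows (GRCm38.p6) of *Cnr2* are shown because it is the one receptor called, with the core letters of Ikaros family binding motifs, GGGAA or TTCCC on the other strand, in capitals. The 250 bases before the first annotated start, chr4:135894939-135895188, held no match, and those before the second, chr4:135911430-135911679, held 1. Both are printed on the plus strand, which is that of the gene.
*Cnr2*, first start: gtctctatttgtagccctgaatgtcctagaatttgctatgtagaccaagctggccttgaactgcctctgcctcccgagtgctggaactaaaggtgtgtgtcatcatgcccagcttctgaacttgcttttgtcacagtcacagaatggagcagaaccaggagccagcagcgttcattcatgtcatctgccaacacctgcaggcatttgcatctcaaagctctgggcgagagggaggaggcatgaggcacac
*Cnr2*, second start: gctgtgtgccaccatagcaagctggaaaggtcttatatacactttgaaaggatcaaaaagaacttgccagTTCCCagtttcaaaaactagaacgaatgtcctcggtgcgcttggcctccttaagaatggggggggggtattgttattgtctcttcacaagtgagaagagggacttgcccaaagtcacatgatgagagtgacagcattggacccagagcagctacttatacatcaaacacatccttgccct
Of the 10 windows found for 8 of the 9 receptors 6 (60.0%) held the motif, beside 56.2% of 32851 windows of the same length. A match of 5 letters is common by composition and is a description only.

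Of 10 other genes listed for endocannabinoid signalling and turnover 7 were tested, and in the homozygote 1 fell, 0 rose and 6 did not pass. Thus 14.3% were called beside 5.26% of all tested genes. *Faah*, the hydrolase that degrades anandamide, had 216.5 and 236.9 CPM in the wild type, 188.2 and 188.5 CPM in the heterozygote and 176.0 and 132.7 CPM in the homozygote. The groups did not overlap, and *Faah* fell by 0.55 ± 0.13 on the log2 scale in the homozygote (edgeR FDR 0.0263), a call lost without either wild-type library or the second homozygous library (edgeR FDR 0.0678 to 0.211). *Gpr18*, a receptor for lipid amino acid conjugates, had 44.1 and 47.8 CPM in the wild type and 34.7 and 36.4 CPM in the homozygote and did not pass. *Cnr1*, the cannabinoid receptor of neurons, had 0 to 3 reads in a library.

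Of the prostaglandin E2 receptors, *Ptger4* (chr15:5206661-5244187, minus strand), which encodes EP4, prevailed over *Ptger2* (chr14:44988195-45003820, plus strand), which encodes EP2, with 85.0% to 94.8% of their summed level per length. *Ptger4* had 44.8 and 41.2 CPM in the wild type, 40.3 and 37.5 CPM in the heterozygote and 34.3 and 35.9 CPM in the homozygote. It was the 1 receptor of the 8 with all 4 mutant libraries below both wild-type libraries, as were 12.9% of all tested genes. The log2 fold change was -0.29 ± 0.11 in the homozygote (edgeR FDR 0.192) and -0.14 ± 0.11 in the heterozygote (edgeR FDR 0.574), which is close to the midpoint (difference 0.0042, 95% interval -0.21 to 0.22). The 82 exonic bases it shares with *Ttc33* on the other strand cannot be told apart if reads were counted without strand.

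*Ptger2* varied between libraries of 1 genotype. It had 32 and 43 reads in the wild type, 94 and 53 in the heterozygote and 67 and 21 in the homozygote, or 2.75 and 2.89, 5.55 and 3.41, and 3.90 and 1.54 CPM. The homozygous libraries lay on either side of the wild-type ones. The log2 fold change was 0.0017 in the homozygote with a 95% interval from -0.94 to 0.94, so a change of nearly 2-fold in either direction lay within it. In the heterozygote the log2 fold change was 0.67 ± 0.39 (95% interval -0.19 to 1.54, edgeR FDR 0.432).

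Of 16 other prostanoid genes listed 9 were tested, and in the homozygote 1 rose, 1 fell and 7 did not pass. Thus 22.2% were called beside 5.26% of all tested genes, again in a list chosen with earlier results known. *Tbxa2r*, the thromboxane A2 receptor, had 55.7 and 44.8 CPM in the wild type, 30.6 and 28.4 CPM in the heterozygote and 10.9 and 8.35 CPM in the homozygote. It fell from each genotype to the next, with log2 fold changes of -0.76 ± 0.14 in the heterozygote (edgeR FDR 0.0250), -2.37 ± 0.17 in the homozygote (edgeR FDR 2.8e-05) and -1.61 ± 0.17 between them (edgeR FDR 0.000856). The 2 comparisons with the homozygote were called under every alternative held to that FDR, while that of the heterozygote with the wild type was lost without the first wild-type library or either heterozygous one (edgeR FDR 0.0529 to 0.158).

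*Ptgir*, the prostacyclin receptor, which like EP2 and EP4 couples to Gs, ran the opposite way. It had 7.90 and 6.19 CPM in the wild type, 11.9 and 12.4 CPM in the heterozygote and 17.5 and 21.3 CPM in the homozygote, with no overlap between genotypes. It rose by 1.47 ± 0.19 on the log2 scale in the homozygote (edgeR FDR 0.000973), a call made under every such alternative. *Ptges3*, known both as a prostaglandin E synthase and as the chaperone p23, was lower in the heterozygote by 0.60 ± 0.12 (edgeR FDR 0.0279, and 0.0529 to 0.263 without the second wild-type or either heterozygous library).

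*Lpar6* (chr14:73237895-73243294, plus strand), a lysophosphatidic acid receptor, had 27.4 and 27.4 CPM in the wild type, 38.7 and 35.9 CPM in the heterozygote and 34.2 and 32.7 CPM in the homozygote. The mutant libraries were all above the wild-type ones, with the heterozygote highest and no overlap between the 2 mutant genotypes. The log2 fold change was 0.45 ± 0.12 in the heterozygote (edgeR FDR 0.0813) and 0.29 ± 0.12 in the homozygote (edgeR FDR 0.214), and neither passed. The gene lies within the span of *Rb1* on the other strand and shares 408 exonic bases with it. Those bases cannot be told apart if reads were counted without strand. The RefSeq window before its start, chr14:73237641-73237890 on the plus strand, is shown for its 1 match to the motif, in capitals, in the receptor with the lowest p between the heterozygote and the wild type.
*Lpar6*: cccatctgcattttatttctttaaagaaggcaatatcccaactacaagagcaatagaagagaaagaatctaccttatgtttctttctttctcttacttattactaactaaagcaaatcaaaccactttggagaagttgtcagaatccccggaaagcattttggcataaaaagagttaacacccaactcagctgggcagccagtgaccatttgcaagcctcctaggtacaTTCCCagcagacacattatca

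*P2ry10* (chrX:107088492-107104974, plus strand), a lysophosphatidylserine receptor, had 127.8 and 125.0 CPM in the wild type, 112.1 and 131.0 CPM in the heterozygote and 124.1 and 141.7 CPM in the homozygote. The 3 genotypes overlapped. The log2 fold change was 0.072 in the homozygote (95% interval -0.17 to 0.31) and -0.057 in the heterozygote (95% interval -0.30 to 0.18), so a change beyond 1.5-fold lay outside both intervals. *P2ry10* is on the X chromosome, and its heterozygous libraries are those with *Xist*.

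The lysophosphatidylserine receptor genes beside it on the X chromosome gave lower values in the mutants. *P2ry10b* had 23.2 and 23.1 CPM in the wild type, 19.1 and 16.8 CPM in the heterozygote and 17.1 and 16.3 CPM in the homozygote, with a log2 fold change of -0.47 ± 0.14 in the homozygote (edgeR FDR 0.0838). *Gpr174* had 92.3 and 93.1, 84.6 and 87.8, and 75.9 and 73.8 CPM in the same order, with a log2 fold change of -0.31 ± 0.094 in the homozygote (edgeR FDR 0.0929). In both genes all mutant libraries lay below the wild type and neither passed the test. The share of *P2ry10* in the summed level per length of *P2ry10* and *P2ry10b* was 86.3% and 86.5% in the wild type and 87.2% to 91.0% in the mutants.

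Of the 15 listed lysophospholipid genes 8 were tested, and in the homozygote 3 rose and 1 fell. Thus 50% were called beside 5.26% of all tested genes, in a list chosen with earlier results known. *Gpr34*, another lysophosphatidylserine receptor, had 6.01 and 4.10 CPM in the wild type, 9.62 and 9.40 CPM in the heterozygote and 12.9 and 12.2 CPM in the homozygote, a log2 fold change of 1.34 ± 0.21 in the homozygote (edgeR FDR 0.00392, and 0.0644 without the second wild-type library). *Lpar5*, a lysophosphatidic acid receptor, had 33.8 and 35.7, 27.7 and 21.3, and 23.0 and 16.3 CPM and fell by 0.81 ± 0.18 (edgeR FDR 0.0216, and 0.0714 to 0.149 without either wild-type or the second homozygous library). *Lpar6* and *Lpar5*, which share their ligand, thus had values of opposite sign, of which the fall of *Lpar5* was called.

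The proton-sensing receptors *Gpr132* and *Gpr65* stand in the same list. *Gpr132* rose by 0.41 ± 0.10 (edgeR FDR 0.0425, and 0.0574 to 0.307 without any 1 wild-type or homozygous library). *Gpr65* was higher by 0.55 ± 0.11 in the homozygote than in the heterozygote (edgeR FDR 0.0295, and 0.0594 to 0.145 without any 1 mutant library) and did not differ by the test from the wild type. Among the other lipid receptors 3 of 11 were tested. *Ffar2*, a short-chain fatty acid receptor, had 0 and 0 reads in the wild type, 19 and 18 in the heterozygote and 8 and 2 in the homozygote, at least 4.96-fold higher in the heterozygote than the mean limit set by 3 reads in each wild-type library (edgeR FDR 0.0448, and 0.0944 to 0.328 without any 1 wild-type or heterozygous library).

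The G protein and effector genes through which these receptors signal also held calls. Of 17 listed 16 were tested, and in the homozygote 2 rose and 2 fell. Thus 25% were called beside 5.26% of all tested genes, in a list chosen with earlier results known. *Gng2*, a G protein gamma subunit, had 21.3 and 19.7 CPM in the wild type, 17.1 and 23.9 CPM in the heterozygote and 7.51 and 8.65 CPM in the homozygote. It fell by 1.35 ± 0.20 on the log2 scale against the wild type (edgeR FDR 0.00247) and by 1.35 ± 0.19 against the heterozygote (edgeR FDR 0.00639), and both calls were made under every such alternative. *Adcy6*, an adenylyl cyclase inhibited by Gi, had 162.1 and 178.8, 109.0 and 132.0, and 106.3 and 108.2 CPM and fell by 0.67 ± 0.11 in the homozygote (edgeR FDR 0.00496, and 0.0591 without the second wild-type library) and by 0.50 ± 0.11 in the heterozygote (edgeR FDR 0.0462, and 0.101 to 0.326 without either wild-type or the first heterozygous library).

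*Gnaq*, the alpha subunit of Gq, had 5.15 and 6.73 CPM in the wild type, 10.3 and 10.6 CPM in the heterozygote and 11.2 and 15.5 CPM in the homozygote and rose by 1.14 ± 0.22 (edgeR FDR 0.0125, and 0.0805 and 0.0952 without the second homozygous or the first wild-type library). *Gnb2*, a beta subunit, rose by 0.45 ± 0.096 (edgeR FDR 0.0196, and 0.0528 to 0.161 without any 1 wild-type or homozygous library). *Gnai2* and *Gnas*, the most abundant alpha subunits of Gi and Gs in the list, did not pass and had 535.9 to 713.8 and 377.9 to 502.6 CPM. Of the 7 genes of receptor desensitisation, the kinases *Grk2*, *Grk3*, *Grk5* and *Grk6*, the arrestins *Arrb1* and *Arrb2* and the dynamin gene *Dnm2*, 0 passed in any of the 3 comparisons.

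Over the 94 genes listed around the receptors 62 were tested, and in the homozygote 9 rose and 6 fell against the wild type, 24.2% of those tested beside 5.26% of all tested genes. In the heterozygote 1 rose and 4 fell (8.06% beside 1.75%), and between the mutants 2 were higher and 2 lower in the homozygote (6.45% beside 1.66%). Because the lists were chosen with earlier results of these data known, these shares do not measure an enrichment. Without 1 library the 15 calls in the homozygote became 5 (either wild-type library), 9 (first homozygous) or 7 (second homozygous), the 5 in the heterozygote became 0 (first heterozygous) or 1 (second heterozygous or either wild-type), and the 4 between the mutants became 2 (first heterozygous or second homozygous). In every alternative held to an FDR under 0.05, 3 of the 15 calls in the homozygote were made, those of *Ptgir*, *Tbxa2r* and *Gng2*. The median log2 fold change in the homozygote was 0.075 over the 62 genes, 0.13 over the 8 receptors and 0.00038 over all tested genes.

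**Figure D4:**
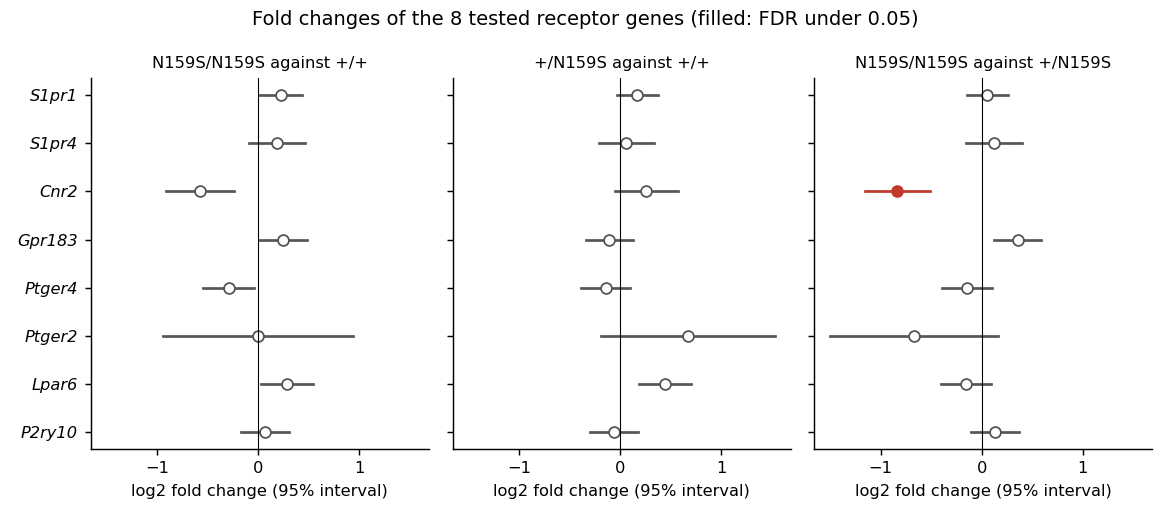
Log2 fold change (point) with its 95% interval (line) of the 8 tested receptor genes in 3 comparisons of *Ikzf3* genotypes, on 1 shared axis. A filled red point marks an edgeR FDR under 0.05, which is reached by *Cnr2* in *Ikzf3* N159S/N159S against *Ikzf3* +/N159S, at -0.84, and the widest intervals are those of *Ptger2*.

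**Figure D5:**
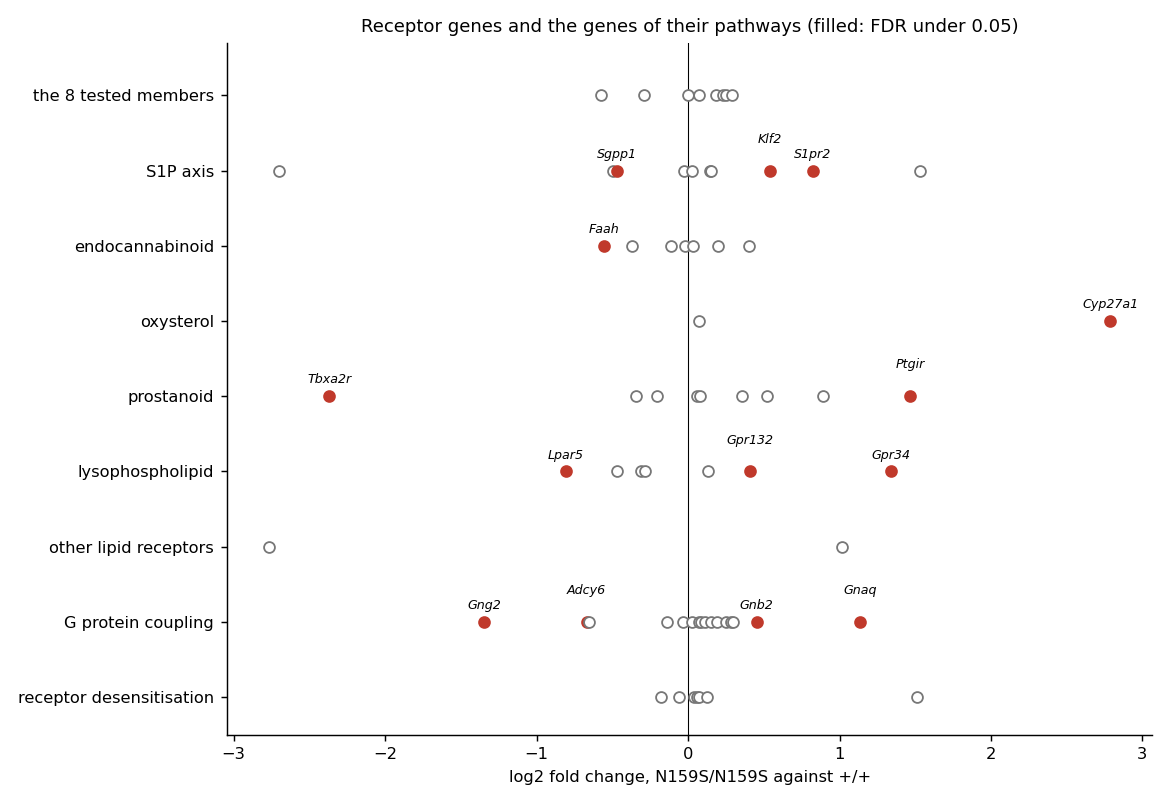
Log2 fold change of *Ikzf3* N159S/N159S against *Ikzf3* +/+ for the 8 tested receptor genes (top row) and the tested genes of the lists around them, 1 point for each gene, with genes at an edgeR FDR under 0.05 filled and named. *Ffar2*, with 0 reads in the wild type, is not drawn, nor is any gene whose values are not reported here. The 8 receptors lie between -0.58 and 0.29, while *Tbxa2r* reaches -2.37 and *Ptgir* 1.47.

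By allele number the receptors showed no common course. The heterozygous mean lay between those of the homozygotes for 3 of 8 receptors (37.5%), *S1pr1*, *S1pr4* and *Ptger4*, as for 38.7% of all tested genes. It was the highest for *Cnr2*, *Ptger2* and *Lpar6* and the lowest for *Gpr183* and *P2ry10*. Against the midpoint of the homozygotes 0 of 8 receptors passed, where 1.03% of all tested genes did, and 3 of 8 had an unadjusted edgeR p under 0.05, where 11.5% of all tested genes did. These were *Cnr2*, *Lpar6* (0.30 ± 0.098 above it, edgeR FDR 0.247) and *Gpr183* (-0.23 ± 0.092, edgeR FDR 0.373).

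Libraries of the homozygote did not overlap those of the wild type for 6 of 8 receptors, 4 higher (*S1pr1*, *S1pr4*, *Gpr183* and *Lpar6*) and 2 lower (*Cnr2* and *Ptger4*), beside 24.3% and 23.9% of all tested genes. In the heterozygote 4 were higher (*S1pr1*, *Cnr2*, *Ptger2* and *Lpar6*) and 1 lower (*Ptger4*), beside 25% and 22.1%. Between the mutants 2 were higher in the homozygote (*S1pr1* and *Gpr183*) and 3 lower (*Cnr2*, *Ptger4* and *Lpar6*), beside 19.5% and 21.6%. With 2 libraries against 2 an exact permutation test of a single gene cannot go below p = 0.333, so separation alone passes no threshold.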

How the data were processed

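Per the labels, RNA was extracted with Trizol and libraries were made with the NEBNext Ultra II kit. The authors trimmed reads with Trimmomatic 0.38.1, aligned them to mm10 with HISAT2 2.2.1 and counted them per gene with HTSeq 2.0.2, and deposited raw counts, 1 table per library. The strand setting is not given in the sources used here. Entries that were unaligned, aligned to several places, of low quality, ambiguous or outside genes were left out, and 50.7% to 57.7% of each library's entries fell on genes.

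The members and gene lists were chosen with earlier results of these data known. Genes passing filterByExpr (at least 10 reads, 15 in total) were fitted over all 6 libraries with edgeR 4.0.16 (R 4.3.3) by TMM and the quasi-likelihood test, adjusted by Benjamini-Hochberg over all tested genes, with 3 pairwise comparisons and the heterozygote against the midpoint. CPM used TMM library sizes. Intervals are the estimate plus or minus the t quantile times the standard error. Lengths and overlaps came from GENCODE vM21. DESeq2 1.42.0 and other settings were alternatives, and the fit was tested on simulated data. Named genes were the 9 receptors, every listed pathway gene with an FDR under 0.05 and up to 2 others per list. Values of some listed genes are not reported here.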

Additional observations from a re-analysis of the deposited data

How the results depend on the processing

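Of the log2 fold changes of the 8 receptors under the alternatives, 429 kept their direction and their side of the threshold, 13 came to pass it, 2 ceased to pass it and 20 changed sign. For *Ptger2* in the homozygote against the wild type the sign changed to -0.0379 with DESeq2, -0.0901 with the replicate block, -0.036 with the likelihood ratio test, -0.0276 with the legacy quasi-likelihood test, -0.000269 with a block for the libraries with more genes detected (an alternative chosen after seeing the data), and the value ran from -0.875 to 0.473 with 1 library left out (-0.0296 without the first wild-type library). For *Ptger4* against the midpoint it changed to -0.0075 with DESeq2 and -0.00663 with DESeq2 size factors, and the value ran from -0.0529 to 0.0567 with 1 library left out (-0.0273 and -0.0128 among them). With 1 library left out *S1pr4* ran from -0.0934 to 0.206 in the heterozygote, from -0.0425 to 0.286 between the mutants (-0.0169 among them) and from -0.187 to 0.112 against the midpoint (0.0534 among them), and *P2ry10* from -0.0154 to 0.164 in the homozygote, from -0.170 to 0.0492 in the heterozygote and from -0.206 to 0.0130 against the midpoint.

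Receptors called in the homozygote against the wild type numbered 1 without a filter, with the likelihood ratio test and with the legacy test, 2 with the block for genes detected and 0 to 1 with 1 library left out, *Cnr2* in each case and *S1pr1* as the other under that block. In the heterozygote 1, *Lpar6*, was called with the likelihood ratio test and with that block. Between the mutants 2 were called with that block, *Cnr2* and *Gpr183*, 0 at an FDR under 0.01 and 0 to 1 with 1 library left out. Against the midpoint 1 was called without a filter and with the likelihood ratio test, *Cnr2*, and 2 with that block, *Cnr2* and *Lpar6*.

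All genes called in the homozygote numbered 1042 with the likelihood ratio test, 1756 with the block for genes detected, 257 at an FDR under 0.01 and 221 to 751 with 1 library left out. In the heterozygote they numbered 327 with DESeq2, 542 without a filter, 640 with the likelihood ratio test, 1422 with that block, 41 at an FDR under 0.01 and 68 to 250 with 1 library left out. Between the mutants they numbered 486 without a filter, 473 with the likelihood ratio test, 877 with that block, 54 at an FDR under 0.01 and 62 to 205 with 1 library left out. Against the midpoint they numbered 339 without a filter, 356 with the likelihood ratio test, 737 with that block, 33 at an FDR under 0.01 and 66 to 117 with 1 library left out. The cause was not tested, except that a stricter threshold gives fewer calls by construction.

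The main fit assumed no pairing by the shared replicate numbers. The correlations of the replicate differences between genotypes were -0.167, -0.216 and 0.238. With 1 difference per genotype they cannot exclude a pairing or a factor shared across genotypes. With the replicate block 0, 0, 1 and 0 receptors and 514, 170, 168 and 120 genes were called in the 4 comparisons. *Cyp27a1*, *Gpr132*, *Cd69*, *Gpr65*, *Ffar2* and *Ikzf3* lost a call in at least 1 comparison under that block. *Ikzf3* also lost its call with DESeq2 size factors and with the legacy test. Of the values of the pathway genes and *Ikzf3*, 297 kept direction and side and 71 ceased to pass. The 0 to 4 reads of *S1pr5* in a library limit what can be said of it.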
